A study of Mus musculus with 4 samples.

Results

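The genes described here are 3 DNA methyltransferases (Dnmt1, Dnmt3a and Dnmt3b) and 6 histone deacetylases (Hdac1, Hdac2, Hdac3, Hdac4, Hdac5 and Hdac11), measured in mouse hippocampus. They were taken as every probe set, that is every group of probes against one transcript, that the array's probe table gives to exactly 1 of these 9 gene symbols. That rule gave 21 of 45101 probe sets and 9 of 18193 genes. RNA of the complete left hippocampus was measured in 4 wild-type samples, numbered 11, 13, 15 and 17, with 1 array each. The design text describes them as biological replicates, and no genotype other than wild type, no treatment and no age or sex of the animals is stated in the sources used here. As there is 1 group, the data answer which of these genes were detected and how far their levels differed between samples.

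DNA methyltransferases add a methyl group to cytosine, mostly where a guanine follows. Dnmt1 copies the methyl marks of the old strand onto a newly made one, while Dnmt3a and Dnmt3b place marks where there were none, and Dnmt3b acts mainly in the early embryo. Histone deacetylases remove acetyl groups from histone tails, which goes with closed chromatin and low transcription. Hdac1, Hdac2 and Hdac3 (class I) are the catalytic subunits of nuclear repressor complexes. Hdac4 and Hdac5 (class IIa) shuttle between nucleus and cytoplasm under control of calcium-dependent kinases and bind Mef2 transcription factors. Hdac11 stands alone as class IV. In the mouse hippocampus, Hdac2 and Dnmt3a are known for their roles in memory.

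The promoters of 4 of these genes are printed. Dnmt3b was the member that was not detected. In the values as deposited, Hdac4, Hdac5 and Hdac11 were lowest in sample 11 and highest in sample 15 in every probe set above background. Over all probe sets above background, 45% were lowest in sample 11 and 26.3% highest in sample 15. The share with both was not computed, so the pattern is not shown to be particular to these genes. Each window runs from 250 bases before to 50 bases after the annotated start of the gene, 5′ to 3′, from RefSeq on build GRCm38.p6. Capitals mark each CG dinucleotide, the site these methyltransferases act on.
Dnmt3b promoter window, chr2:153649199-153649498, plus strand: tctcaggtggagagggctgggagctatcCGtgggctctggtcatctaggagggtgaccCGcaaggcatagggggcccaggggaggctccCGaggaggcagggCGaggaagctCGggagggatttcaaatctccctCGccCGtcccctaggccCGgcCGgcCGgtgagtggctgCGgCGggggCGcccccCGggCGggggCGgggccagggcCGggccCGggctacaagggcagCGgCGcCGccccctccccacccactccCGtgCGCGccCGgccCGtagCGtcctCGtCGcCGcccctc
Hdac4 promoter window, chr1:92180292-92180591, minus strand: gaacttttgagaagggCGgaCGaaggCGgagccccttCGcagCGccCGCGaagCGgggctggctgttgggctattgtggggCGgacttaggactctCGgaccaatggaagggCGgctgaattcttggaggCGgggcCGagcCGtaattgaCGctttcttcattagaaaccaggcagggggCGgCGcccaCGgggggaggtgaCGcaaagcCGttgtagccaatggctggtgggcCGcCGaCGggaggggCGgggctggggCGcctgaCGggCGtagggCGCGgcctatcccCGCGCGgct
Hdac5 promoter window, chr11:102230123-102230422, minus strand: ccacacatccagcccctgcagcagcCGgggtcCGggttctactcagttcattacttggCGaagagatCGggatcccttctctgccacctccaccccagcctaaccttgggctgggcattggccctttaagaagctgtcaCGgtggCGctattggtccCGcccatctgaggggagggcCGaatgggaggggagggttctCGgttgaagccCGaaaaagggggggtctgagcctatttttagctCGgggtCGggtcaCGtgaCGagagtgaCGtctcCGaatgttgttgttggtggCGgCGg
Hdac11 promoter window, chr6:91156565-91156864, plus strand: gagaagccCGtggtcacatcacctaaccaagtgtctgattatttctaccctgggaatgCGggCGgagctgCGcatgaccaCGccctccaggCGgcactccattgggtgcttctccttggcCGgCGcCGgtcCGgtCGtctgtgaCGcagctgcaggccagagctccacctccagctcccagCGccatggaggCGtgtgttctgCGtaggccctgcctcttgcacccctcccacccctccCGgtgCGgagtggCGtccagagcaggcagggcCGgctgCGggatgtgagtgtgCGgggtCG

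All of these windows held more CG dinucleotides than the median promoter. There were 30 in the Dnmt3b window, 32 in that of Hdac4, 18 in that of Hdac5 and 22 in that of Hdac11, against a median of 7 over 32851 windows of the same length. The undetected Dnmt3b thus did not stand out from the detected genes by this count. Windows could be shown for 7 of the genes, and Hdac1 and Hdac3 are not among them. The 11 windows of these genes held between 2 CG dinucleotides, at a start of Dnmt1, and 47, at a start of Dnmt3a. The motif GGGCGG, the binding motif of Sp1, was present on either strand in 9 of these 11 windows, against 35.7% of all windows. The CCAAT box was present on either strand in 5 of the 11 and in 37.4% of all windows. The TATA box (TATAAA, either strand) was in 0 of the 11 and in 13.6% of all windows. These counts describe letters, and methylation was not measured here.

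Of the 9 genes, 8 lay above background and Dnmt3b did not. Background was set at a log2 intensity of 7.03, the interpolated percentile 95 of the mean levels of 43 genes of testis, ovary, liver, skin, pancreas, muscle, kidney, lung, gut, breast and thyroid. Of these genes 40 lay under it, and Krt10, Lor and Lct above it. A gene counted as above it when the mean of any of its probe sets was. Over the array 36.5% of genes and 22.5% of probe sets passed this limit, and of the members' 21 probe sets 12 did. At the 99th percentile of the listed genes, a limit of 7.67, the counts were 6 genes and 6 probe sets, and 26.9% of all genes passed. Dnmt3a and Hdac4 were above the main limit but not above this one. Because probes differ in affinity, levels of different genes or probe sets are not ranked against each other, and a transcript under background may still be present.

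**Figure D1:**
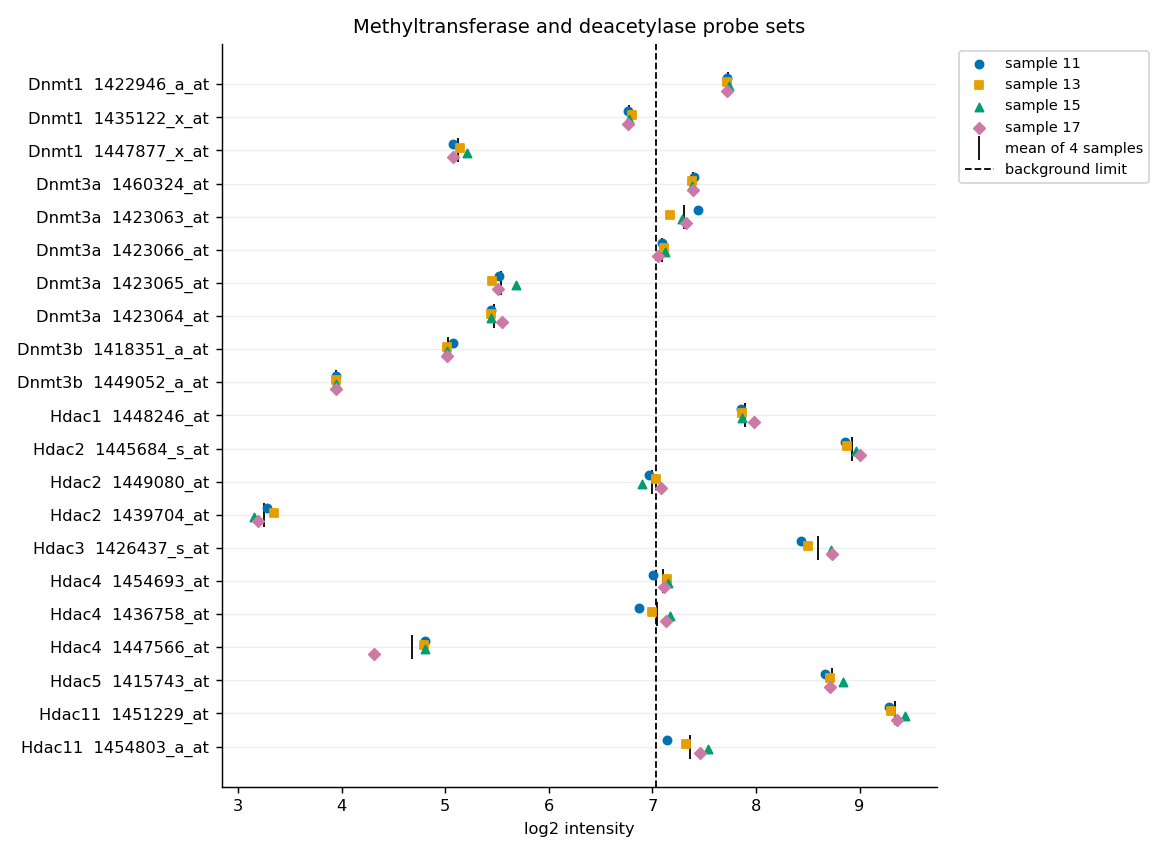
Log2 intensity (horizontal axis) of the 21 probe sets in samples 11, 13, 15 and 17 (coloured points), with the mean as a black bar and the background limit of 7.03 as a dashed line. Both Dnmt3b probe sets lie left of the limit, and each other gene has at least 1 probe set to its right.

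Dnmt1, the maintenance methyltransferase, was detected by 1 of its 3 probe sets and hardly varied there. The set 1422946_a_at read 7.72, 7.72, 7.74 and 7.72 in samples 11, 13, 15 and 17 (7.73 ± 0.011, SD, n = 4). Samples 11, 13 and 17 held the same value, and sample 15 was 0.016 above the mean. The other sets, 1435122_x_at at 6.78 ± 0.018 and 1447877_x_at at 5.12 ± 0.068, stayed under background in each sample. The suffix _x marks sets with probes that resemble other transcripts, so these readings are the less certain ones. Of the proliferation markers measured, only Pcna was above background, 1 of 6, and the cycling genes Mki67, Top2a, Cdk1, Mcm2 and Birc5 were not.

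Dnmt3a, a de novo methyltransferase, was detected by 3 of 5 probe sets. All 3 lay under the stricter limit of 7.67, and 2 of the 43 background genes had a higher mean than each. The set 1460324_at read 7.40, 7.38, 7.38 and 7.39 in samples 11, 13, 15 and 17, and 1423066_at read 7.09, 7.11, 7.12 and 7.06 in the same order. These samples lay within 0.069 of each other in both sets. The set 1423063_at spread further, at 7.44, 7.17, 7.28 and 7.33, a 1.20-fold span with sample 11 highest and sample 13 lowest. The set 1460324_at gave the same order within its far smaller range, apart from samples 13 and 15, which were equal there. In 1423066_at the order was another, with sample 15 highest and sample 17 lowest. The sets 1423065_at (5.54 ± 0.10) and 1423064_at (5.47 ± 0.054) were under background. Pseudogene copies of Dnmt3a and of Dnmt3b are annotated, and their share in these signals was not tested.

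Dnmt3b, the other de novo enzyme, was under background in both probe sets and all 4 samples. The set 1418351_a_at read 5.07 in sample 11 and 5.01 in each of samples 13, 15 and 17, and 11 of the 43 background genes had a higher mean. The set 1449052_a_at had the same value, 3.94, in all 4 samples, and 19 background genes were higher. Dnmt3l, the catalytically inactive partner of the de novo enzymes in germ cells, stood at 3.59 ± 0.050.

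The class I deacetylases Hdac1, Hdac2 and Hdac3 were detected. Hdac1 had a single probe set, at 7.86, 7.86, 7.86 and 7.98 in samples 11, 13, 15 and 17 (7.89 ± 0.060). Samples 13 and 15 held equal values of 7.860, sample 11 read 7.858, and sample 17 stood above the rest. A pseudogene copy of Hdac1 is annotated, and whether it adds to this signal was not tested. Hdac2 was above background only in 1445684_s_at, at 8.86, 8.88, 8.96 and 9.01 in the same order (8.93 ± 0.070), again with sample 17 highest and sample 11 lowest. The suffix _s of that set marks probes that can read more than 1 transcript, so its signal may not be of Hdac2 alone. The Hdac2 set 1449080_at was at 6.96, 7.03, 6.90 and 7.09, a mean just under the limit, with sample 15 lowest instead. The remaining set, 1439704_at, read only 3.24 ± 0.086, below 33 of the 43 background genes. Thus the probe sets of Hdac2 did not place the samples in 1 order.

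Hdac3, the catalytic subunit of nuclear co-repressor complexes, had 1 probe set and the second largest spread among those of the members above background. It read 8.44, 8.50, 8.73 and 8.74 in samples 11, 13, 15 and 17 (8.60 ± 0.16, a 1.23-fold span). Samples 11 and 13 lay together below samples 15 and 17. The suffix _s of this set, 1426437_s_at, marks probes that can read more than 1 transcript. Among genes above background, the per-sample deviations of Tmem201 and Adipor1 were nearest to those of Hdac3, with root mean square differences of 0.0068 and 0.0071 on the log2 scale over 4 samples. Tmem201 is a protein of the inner nuclear membrane and Adipor1 an adiponectin receptor. With 4 samples many genes share an order, and no other member had both a level above background and an above-median SD in its probe set with the highest mean.

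The class IIa deacetylases Hdac4 and Hdac5 were detected, Hdac4 close to the limit. Hdac4 read 7.01, 7.14, 7.15 and 7.12 in samples 11, 13, 15 and 17 by 1454693_at (7.10 ± 0.067) and 6.87, 6.99, 7.17 and 7.13 by 1436758_at (7.04 ± 0.13). In both sets sample 11 was lowest, under the limit, and sample 15 highest, and in 1436758_at sample 13 was under the limit too. The span was 1.11-fold in the first and 1.22-fold in the other. The remaining set, 1447566_at, lay far below the limit and went another way, at 4.81, 4.79, 4.81 and 4.32, with sample 17 lowest. Hdac5 read 8.67, 8.71, 8.84 and 8.71 by its only set, 1415743_at (8.73 ± 0.077). Sample 15 was highest, sample 11 lowest, and samples 13 and 17 were equal.

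Hdac11, the class IV deacetylase, was detected by both of its probe sets, and one of them had the largest spread among the members above background. The set 1451229_at read 9.28, 9.30, 9.44 and 9.36 in samples 11, 13, 15 and 17 (9.35 ± 0.069). The set 1454803_a_at read 7.14, 7.32, 7.54 and 7.46 (7.37 ± 0.18), a 1.32-fold span against 1.11-fold in the first. Both sets gave the 4 samples the same order, with 11 lowest, then 13, 17 and 15. In the mouse brain Hdac11 is known from oligodendrocytes and neurons. The 6 myelin genes above background deviated on average by -0.18, 0.40, -0.052 and -0.18 in these samples, highest in sample 13, where neither Hdac11 set was. The 8 neuron markers deviated on average by at most 0.027, but some lists of single neuron types moved more. CA1 markers deviated by -0.045, 0.046, 0.11 and -0.11, highest in sample 15. Dentate granule markers above background deviated by -0.045, -0.078, -0.10 and 0.22, and interneuron markers by -0.054, 0.067, 0.035 and -0.048. CA3 markers above background deviated by -0.0084, 0.0080, -0.0016 and 0.0019. All genes above background deviated on average by -0.051, -0.00076, 0.019 and 0.032. The 4 microglia markers above background deviated by -0.15, 0.030, 0.13 and -0.010 and the 3 markers of oligodendrocyte precursors by -0.10, 0.084, 0.13 and -0.11, both highest in sample 15 as the Hdac11 sets were. Astrocyte markers, 7 of 7 above background, deviated by -0.097, 0.0067, 0.017 and 0.073. The part of these cell types in the Hdac11 differences was not tested.

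**Figure D2:**
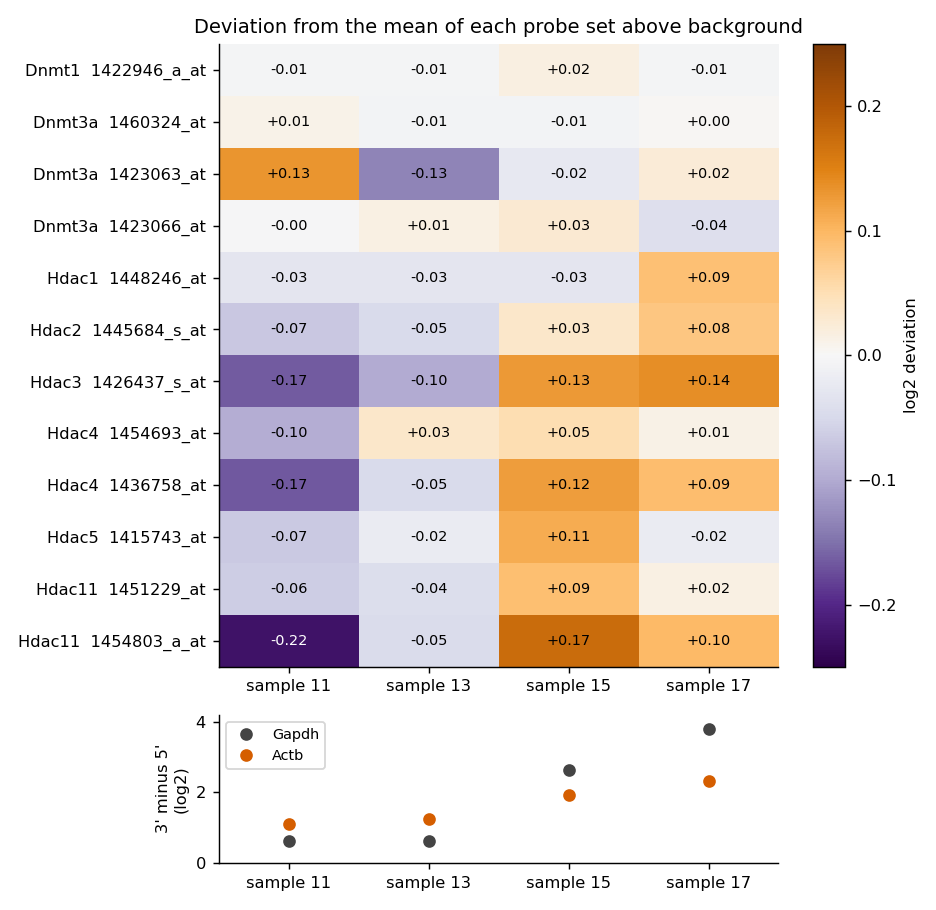
Deviation of each of the 12 probe sets above background from its own mean (upper panel, log2, 1 column per sample), above the 3' minus 5' signal difference of Gapdh and Actb in the same samples (lower panel, log2). All 8 deacetylase rows are lowest in sample 11 in the deposited values (5 or 4 of 8 under other scalings), and the methyltransferase rows share no order.

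Across the deacetylases, all 8 probe sets above background were lowest in sample 11, with 2 sets each from Hdac4 and Hdac11. The 4 methyltransferase sets came from Dnmt1 (1 set) and Dnmt3a (3 sets). None of them was lowest in sample 11 alone, and the Dnmt1 set was tied for lowest in samples 11, 13 and 17. Whether the 2 families differ in this was not tested. Over all 10142 probe sets above background, 45% were lowest in sample 11 too, although the median of all its deposited values was the highest of the 4. The count depended on scaling: it was 8 of 8 when samples were centred on that median, where 56.5% of all sets above background were lowest in sample 11. It was 5 of 8 after another quantile normalization and 4 of 8 when samples were centred on the median of the probe sets above background, where 33.9% and 31.3% of all such sets were lowest in sample 11. The Hdac3 set, both Hdac4 sets and 1454803_a_at of Hdac11 stayed lowest in sample 11 under each of these scalings. Including the sets under background, 8 of 11 deacetylase sets were lowest in sample 11. In whole tissue, fewer cells of a type and less RNA per cell cannot be told apart.

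A control measure of RNA quality differed between the samples in a way that overlaps with this order. The 3' minus 5' signal difference, which grows as transcripts lose their 5' part, was 0.62, 0.62, 2.64 and 3.79 for Gapdh and 1.10, 1.25, 1.93 and 2.33 for Actb in samples 11, 13, 15 and 17. In 5 of 8 deacetylase sets, samples 15 and 17 were both above samples 11 and 13, and in 0 of 8 both were below. Those 5 were the Hdac2 and Hdac3 sets, 1436758_at of Hdac4 and both Hdac11 sets. Over all probe sets above background 30.7% had this order and 11.1% the opposite one, and 0 of the 4 methyltransferase sets had either. The part of RNA quality, or of amplification and labelling, in the deacetylase differences was not tested. Between samples 11 and 13 the median absolute difference of the 12 member sets was 0.034, and between samples 15 and 17 it was 0.047, against 0.073 and 0.072 for all genes above background. Of the other pairs it was 0.15 for samples 11 and 15, against 0.098 for all such genes, and 0.11 for samples 11 and 17, against 0.11. It was 0.096 for samples 13 and 15, against 0.068, and 0.089 for samples 13 and 17, against 0.081.

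None of these spreads passed a test across the array. With limma, the variance of each probe set between samples was set against the variance usual at its level, and 0 of 12 member sets passed at a Benjamini-Hochberg adjusted p of 0.05. Over all 10142 probe sets 0% passed as well, and 318 had an unadjusted p under 0.05, of which 0 were members. The adjusted p was 0.892 for Hdac3, for 1454803_a_at of Hdac11, for 1436758_at of Hdac4 and for 1423063_at of Dnmt3a. That value was also the smallest of the whole array, so it is not particular to these sets. In the same limma test their unadjusted p ran from 0.17 for Hdac3 to 0.41 for Dnmt3a. Even Ttr, at 9.84 in sample 13 against 6.54 in sample 17, did not pass. As it called no set at all, the test cannot decide whether a member's spread was unusual. The median SD of the member sets above background was 0.070, against 0.085 over all such sets, whose 10th to 90th percentiles ran from 0.028 to 0.19. Each member set above background thus lay below the 90th percentile of all sets. A p above the threshold does not show that the samples were alike.

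**Figure D3:**
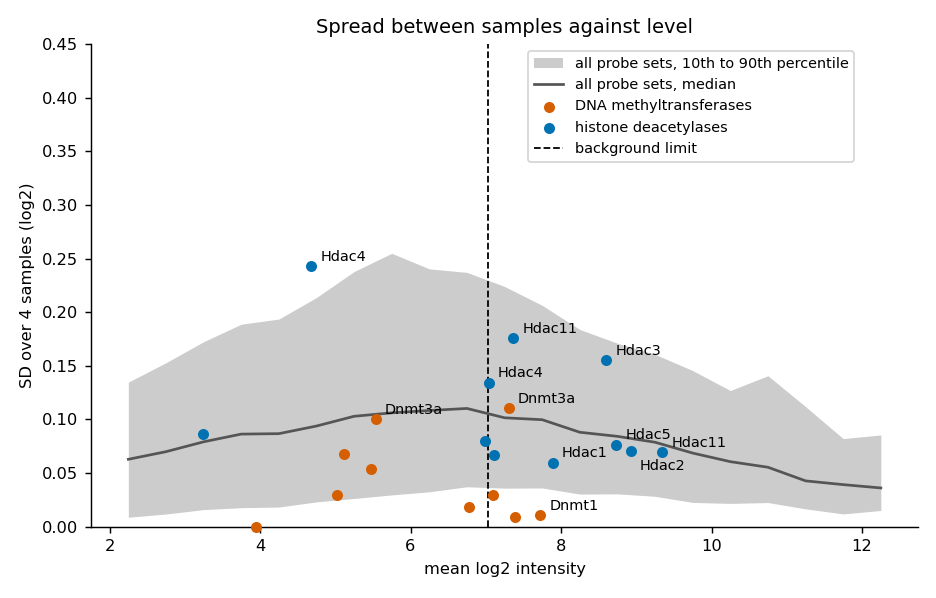
SD over the 4 samples (vertical axis, log2) against mean log2 intensity for the methyltransferase (orange) and deacetylase (blue) probe sets, over the median and the 10th to 90th percentile of all probe sets in steps of level. Hdac3 at 0.16 and Hdac11 at 0.18 are the highest deacetylase points right of the limit, and Dnmt1 and a Dnmt3a set lie near 0.01.

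The probe sets of a gene were also compared with each other, for the 3 members with at least 2 sets above background. An F statistic set the variance that the sets shared between samples over the variance in which they disagreed, with limma's squeezing over 1860 genes, and 2.2% of these genes passed at an adjusted p of 0.05. None of the 3 members did. Hdac11 came nearest, with an unadjusted p of 0.054 and an adjusted p of 0.239 in this limma-based test. Such unadjusted values were common: 405 of the 1860 genes had one under 0.05, and 0 of the 3 members did. Hdac4 had 0.066 and 0.258 in the same test, and Dnmt3a 0.48 and 0.635.

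Genes that work with these enzymes were detected in part. Over 8 lists, 56 of 96 measured genes (58.3%) were above background, against 36.5% of all genes. Of these 56 genes 0 passed the limma test of spread, which called no probe set of the array. Their median SD was 0.066, against 0.082 over all genes above background. The other 8 of the 104 listed genes were not analysed here. At the 90th percentile of the background genes, a limit of 6.23 tried for these lists after their values were seen, 75 of 96 (78.1%) passed, against 47.1% of all genes. Genes between the limits were Mbd2, Mbd3, Mbd6, Smug1, Gadd45b, Gadd45g, Hdac9, Sirt5, Sirt6, Sin3a, Sap30, Ing2, Mta3, Rcor2, Camk1, Prkd1, Kat8, Hat1 and Shmt2. Their place under background rests on that choice. Levels below are those of the probe set with the highest mean.

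Of the DNA methylation partners 3 of 8 passed: Uhrf2 at 7.33 ± 0.14, Dmap1, which binds Dnmt1, at 7.12 ± 0.17, and the co-repressor Trim28 at 9.97 ± 0.067. Uhrf1, which recruits Dnmt1 to half-methylated DNA, was under background at 3.62 ± 0.17, as was the chromatin remodeller Hells at 5.68 ± 0.095. In the methyl-CpG binding domain and Kaiso families 4 of 8 passed, with Mbd1 at 7.59 ± 0.061, Zbtb33 (Kaiso) at 7.56 ± 0.21, Zbtb4 at 9.58 ± 0.012 and Zbtb38 at 7.49 ± 0.079. Mbd2 (6.72 ± 0.054), Mbd3 (6.80 ± 0.47) and Mbd4 (5.31 ± 0.056) were under it. Mbd3, a subunit of the NuRD complex, read 7.11, 7.07, 6.91 and 6.12 in samples 11, 13, 15 and 17, so that sample 17 stood low.

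In active demethylation 2 of 8 passed, the dioxygenase Tet2 at 7.43 ± 0.066 and the repair nuclease Apex1 at 8.96 ± 0.043. The related Tet1 (5.38 ± 0.25) and Tet3 (4.36 ± 0.11) and the glycosylase Smug1 (6.82 ± 0.12) were under background. For the supply of methyl groups 4 of 8 passed: Mat2b at 9.22 ± 0.051, Ahcy, which clears the by-product of methylation, at 7.87 ± 0.054, Ahcyl1 at 10.73 ± 0.046 and Mthfd1 at 8.47 ± 0.053. Methionine synthase, Mtr, stood under background at 4.23 ± 0.064. Trim28, Zbtb4, Zbtb38, Apex1 and Mthfd1 were named after their values were seen.

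Among the other deacetylases 5 of 12 passed, namely Hdac6, a cytoplasmic tubulin deacetylase, at 8.74 ± 0.14, Hdac7 at 7.42 ± 0.037, Sirt2, Sirt3 and Sirt7. The sirtuins were named after their values were seen, and Sirt2, an NAD-dependent enzyme of oligodendrocytes, stood at 9.12 ± 0.089. Hdac8 (4.75 ± 0.15) and Hdac9 (6.63 ± 0.19) were under background. Subunits of class I complexes passed in 18 of 24 cases, with the scaffold Sin3b at 8.20 ± 0.17 and Sap130 at 7.10 ± 0.14. The related Sin3a (6.96 ± 0.070) and Sap30 (7.01 ± 0.23) had means just under the limit.

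Partners of class IIa enzymes passed in 11 of 16 cases. The transcription factors Mef2a (9.78 ± 0.0043), Mef2c (8.96 ± 0.090) and Mef2d (9.97 ± 0.060) were above background and Mef2b (5.05 ± 0.053) was not. Camk4, a kinase that drives class IIa enzymes out of the nucleus, stood at 8.49 ± 0.12. The other kinases listed, Camk1 (6.85 ± 0.16), Prkd1 (6.54 ± 0.21) and Sik1 (5.04 ± 0.18), were under background. Besides Ankra2, the remaining partners that passed were Ywhab, Ywhae, Ywhag, Ywhah, Ywhaq and Ywhaz. These and the other kinases were named after their values were seen. Of the acetyltransferases, which add what deacetylases remove, 9 of 12 passed. Crebbp stood at 8.41 ± 0.17, Ep300 at 7.98 ± 0.12, Kat2a at 8.24 ± 0.061 and Kat2b at 7.08 ± 0.12. Crebbp was lowest in sample 17, at 8.16 against 8.46 to 8.54 in the other samples.

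**Figure D4:**
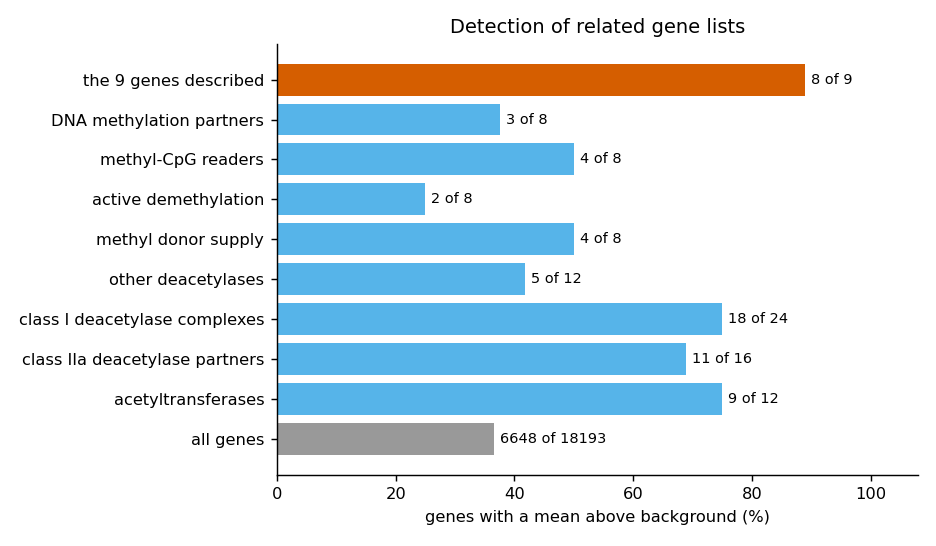
Share of measured genes with a mean above the background limit (horizontal axis, percent) for the 9 genes described, 8 lists of related genes and all genes, with counts beside the bars. Class I complexes (18 of 24) and acetyltransferases (9 of 12) both reach 75%, and active demethylation (2 of 8) lies under the 36.5% of all genes.

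The tissue label was checked with marker lists. All 8 neuron, 6 CA1, 6 interneuron and 7 astrocyte markers were above background, with 5 of 6 dentate granule cell, 3 of 6 CA3, 4 of 6 microglia and 3 of 6 endothelial markers. Choroid plexus was represented by Ttr alone, 1 of 6, which was highest in sample 13 at 9.84 against 6.54 to 7.36 in the others. Thalamus markers passed in 2 of 6 cases, by Ntng1 and Rora. Medians of the deposited values lay between 4.67 and 4.71 in the 4 samples.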

How the data were processed

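RNA of 4 wild-type left hippocampi was extracted, DNase-treated, amplified and biotin-labelled, per the labels' protocols. Per the submitters' processing notes the authors used RMA, so each deposited value is a log2 intensity of a probe set, background-corrected and summarised over its probes; version and settings were not given in the sources used here. In 24009 of 45101 probe sets at least 2 samples hold equal values, which lowers their SDs. The probe table gave 1 symbol to 34958 probe sets, several to 932 and none to 9211. Symbols were updated through Entrez identifiers of the RefSeq table of GRCm38.p6 (34754 matched), which changed no member's name. The 64 control probe sets stood for no gene.

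A gene's level is that of its probe set with the highest mean. Background was the 95th percentile over 43 of 48 listed genes not expected in hippocampus. Spread was tested with limma (an intercept fitted by lmFit, then eBayes, both robust and with a trend) as residual over prior variance, an F statistic with 3 and 2.3 degrees of freedom. The test of probe set agreement used squeezeVar with 2.01 prior degrees of freedom. Both were adjusted by Benjamini-Hochberg over all features tested. They were also run on simulated data, whose outcome is not given here. No file states that the samples came from separate animals beyond the words biological replicates. The number of arrays limits the precision.

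The members and lists were chosen with earlier results of these data known. Named by rule were the members and the 2 genes nearest to a member in deviation. Of each list of related genes, the rule named the first 4 measured genes and the gene with the largest SD above background. All other names fall outside this rule and were picked after their values were seen. Among them are some genes between the background limits and the single genes of the marker and background lists. The tools were Python 3.11.15 with matplotlib 3.10.9, and limma 3.58.1 in R 4.3.3.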

Additional observations from a re-analysis of the deposited data

Results flagged for a closer look

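A sample stood apart from the other 3 in 5 of the 21 methyltransferase and deacetylase probe sets, and in 9 of 35 probe sets of named partner genes, judged by the gap to the nearest value over the whole range, against Dixon's critical value at 95%. Chance alone passes about 1 in 20 groups of 4, but equal values inflate this ratio: 14.9% of all probe sets above background and 26% of all probe sets passed. The ratio was 1, with the other 3 samples equal, for Dnmt1 1422946_a_at (sample 15 high), Dnmt3a 1423064_at (17 high), Dnmt3b 1418351_a_at (11 high), Uhrf1 (17 high), Hdac7 (11 high), Mef2a (17 high), Mef2b (11 high) and Ahcyl1 (17 high). Hdac1 had a ratio of 0.985 with sample 17 high, and Hdac4 1447566_at 0.964 with sample 17 low. Among partners with sample 17 high, Sap130 had 0.953 and Ep300 0.832. Kat2b had 0.909 and Mtr 0.886, both with sample 13 high.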

How the results depend on the processing

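Of 55 recomputed counts and medians for the members, 51 moved by less than 1.5 times or, for the median SD, by less than its standard error. These include the counts of members passing either test, which were 0 in every run. In the spread test 0 probe sets of the whole array passed in any run, so that count shows nothing about the members' stability. At the 99th percentile of the background genes, 6 member probe sets were above background in place of 12, and with samples 15 and 17 left out together the median SD was 0.0241 in place of 0.0697, which restates the difference between samples 11 and 13 and is no separate evidence. The deacetylase sets lowest in sample 11 were 5 of 8 after another quantile normalization and 4 of 8 with centring on the probe sets above background. All alternatives of that count, and the joint omission of samples 15 and 17, were chosen after seeing the data, and the cause of the shifts was not tested. Leaving out 1 sample gave 10 to 13 member probe sets and 8 genes above background. No member passed either limma-based test under any alternative run, with adjusted p from 0.172 to 0.81 for agreement and from 0.453 for spread. Over all genes, calls of agreement moved from 41 to 82 with median centring, 148 at an adjusted p of 0.1, 13 without a filter on level, 12 without samples 15 and 17, and 3 to 8 with 1 sample left out. No paired analysis was possible because there is a single group.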
